A study of Homo sapiens with 6 samples.

Results

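CD44 and the splicing regulators ESRP1 and ESRP2 were examined in RNA-seq of PC9 cells, a human lung adenocarcinoma line that carries an activating EGFR deletion. The members were the 3 genes with these symbols, of 16306 genes measured, and their 38 transcripts, of 76563 transcripts measured. They were chosen by the shifted transcript shares of CD44 and the levels of the ESRP genes in this same contrast, so their levels and transcript shares are given as a description, without a test. The controls (sh-NC, n = 3) carried a negative control shRNA and the knockdown samples (shRBM10, n = 3) an shRNA against RBM10, an RNA-binding protein that regulates splicing. The study describes 2 shRNAs against RBM10, and which of them these libraries carried is not given in the sources used here. The knockdown columns were headed PC9SH1A, PC9SH1B and PC9SH1C, of which only the first matched a sample title. The other titles were PC9SH2A and PC9SH3A, so columns B and C were placed in the knockdown group by name only, whether they hold those 2 samples is uncertain, and all 3 libraries are named by letter. The labels call each library a replicate biosample and do not say whether these were separate cultures. The study's methods state that experiments were repeated independently, 3 times each, without naming these libraries, so the errors and p-values measure the spread between these libraries, which may be technical. The labels' protocol text speaks of retinas, whereas retinal and glial markers summed to 0.110 to 0.586 CPM (counts per 1000000 counts of the library) and the keratins KRT8 and KRT18 averaged 15167 and 9531 CPM in sh-NC.

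CD44 is a cell-surface glycoprotein that binds hyaluronan and takes part in adhesion and migration. Its RNA has constant exons at both ends and a block of variable exons between them. The standard form (CD44s) skips the whole block, and the variant forms keep different runs of it and so encode a longer extracellular stem. ESRP1 and ESRP2 are RNA-binding proteins of epithelial cells that bind GU-rich sequence and promote the inclusion of CD44 variable exons. When epithelial cells turn mesenchymal, ESRP levels usually fall and CD44 shifts toward the standard form.

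The human genome build named by the labels is hg38 (GRCh38). On GRCh38 with GENCODE 29 annotation, CD44 (gene ID 960) lies on chromosome 11 at 35138870-35232402, plus strand. The full-length CD44 transcript NM_000610 has 18 exons, of which the standard transcript NM_001001391 shares 9. The other 9 are the variable exons v2 to v10, which are exons 6 to 14. All 9 are coding and have a length that is a multiple of 3, from 90 to 204 bases, so that keeping or skipping any of them leaves the reading frame as it is.

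Of the CD44 transcripts that matter most below, NM_001001390 holds v8, v9 and v10, whereas NM_001001389 holds v3 to v10. Exons v3 and v6 are shown because they are in the longer of these forms and not in the shorter, and v8 and v10 because both forms hold them. Sequences are from the GENCODE 29 transcript of NM_000610 on GRCh38, plus strand. Capitals mark GGTGG, a GU-rich string of the ESRP binding type, which was searched on the RNA-sense strand only.
v3, chr11:35198121-35198246: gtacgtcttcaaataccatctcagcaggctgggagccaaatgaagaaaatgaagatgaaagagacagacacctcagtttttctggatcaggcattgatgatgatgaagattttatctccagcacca
v6, chr11:35204512-35204640: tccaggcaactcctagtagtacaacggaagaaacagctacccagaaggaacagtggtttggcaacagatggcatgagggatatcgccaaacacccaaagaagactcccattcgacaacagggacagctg
v8, chr11:35208105-35208206: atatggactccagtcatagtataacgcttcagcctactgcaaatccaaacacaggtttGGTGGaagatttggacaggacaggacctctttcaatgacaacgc
v10, chr11:35211246-35211449: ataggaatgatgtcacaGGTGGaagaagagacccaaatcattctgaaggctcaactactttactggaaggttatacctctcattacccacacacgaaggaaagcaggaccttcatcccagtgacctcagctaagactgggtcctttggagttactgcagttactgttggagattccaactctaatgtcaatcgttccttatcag
The string occurred once each in v8 and v10 and in 0 of the other 7 variable exons. Among 110218 internal exons of protein-coding transcripts with a length of 90 to 204 bases, 18.2% held it. A match is a string of letters and not a site.

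The knockdown was checked first in each library. RBM10 had normalized counts of 1431, 1183 and 1469 in sh-NC 1, 2 and 3 and 537, 515 and 672 in shRBM10 A, B and C, so the groups did not overlap. Its log2 fold change was -1.24 (SE 0.23). The adjusted p was 0.100 by edgeR's quasi-likelihood test and 0.00154 by DESeq2. Normalized counts are estimated read counts scaled by TMM factors to a common depth, and the libraries held 16606390 to 18864243 counts. sh-NC 2 stood apart, with a TMM factor of 0.738 where the others had 1.03 to 1.08. The libraries also differed in how levels followed gene GC content. The 20% of genes lowest in GC content exceeded the 20% highest in it, in median log2 level relative to the mean of the 6 libraries, by 1.21 in shRBM10 A and 0.74 in shRBM10 B, while the difference was -0.31, -0.90 and -0.34 in sh-NC 1, 2 and 3 and -0.34 in shRBM10 C. Across all 12620 genes tested, 2 (0.0158%) had an adjusted p under 0.05 together with a fold above 1 on the log2 scale in either direction, and 1465 (11.6%) had that fold with an unadjusted p under 0.05.

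ESRP1 (gene ID 54845) lies on chromosome 8 at 94641074-94707466, plus strand, and ESRP2 (gene ID 80004) on chromosome 16 at 68229111-68238102, minus strand. ESRP1 was higher in the shRBM10 libraries and ESRP2 was not. In bulk RNA, a change in the share of cells that express a gene and in its RNA per cell cannot be told apart. ESRP1 had normalized counts of 2754, 2153 and 2727 in sh-NC and 4496, 4134 and 2869 in shRBM10 A, B and C. Libraries A and B lay well above every control, whereas library C lay just above the highest of them. The groups did not overlap, as was also the case for 30.1% of all genes tested. The means were 2545 ± 340 and 3833 ± 854 (SD, n = 3 each), a log2 fold change of 0.59 (SE 0.25). ESRP1 had a GC content of 42.8% in its longest reference transcript, toward the low end. A and B were also the libraries in which low-GC genes were high. With each library's GC trend removed the log2 fold change of ESRP1 was 0.03. Comparing library C with sh-NC 1 and 3 alone, the libraries whose GC trends were alike, gave 0.07 (n = 1 against 2).

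ESRP2 had normalized counts of 1097, 905 and 1153 in sh-NC, against 986, 978 and 1207 in shRBM10. The groups overlapped throughout, with means of 1052 ± 130 and 1057 ± 130 (SD, n = 3 each) and a log2 fold change of 0.01 (SE 0.22). Its GC content was 59.6%, and its log2 fold change with the GC trend removed was 0.27.

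Levels of different genes were compared per length, as CPM divided by the effective transcript length in kilobases. On this scale ESRP1 exceeded ESRP2 in every library. The ratio of ESRP1 to ESRP2 levels was 2.56, 2.36 and 2.51 in sh-NC, 4.99 and 4.63 in shRBM10 A and B, and 2.56 in shRBM10 C. Library C was thus within the control range and the groups overlapped. CD44 was the most abundant of the 3 genes, with per-length levels of 203, 116 and 206 in sh-NC and 178, 160 and 161 in shRBM10. ESRP1 followed with 25.1 to 46.7 in sh-NC and 46.9 to 76.2 in shRBM10, and ESRP2 was last with 10.6 to 18.5 and 14.7 to 18.3. These ranges of the 3 genes did not overlap each other within either group.

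The total CD44 level did not separate the groups. Its normalized counts were 14178, 11570 and 14113 in sh-NC and 13402, 12092 and 11609 in shRBM10. All 3 knockdown libraries lay between the lowest and the highest control. The means were 13287 ± 1488 and 12368 ± 927 (SD, n = 3 each), a log2 fold change of -0.10 (SE 0.24). CD44 had a GC content of 45.3%. Its log2 fold change was -0.46 with the GC trend removed, -0.28 without sh-NC 2 and -0.28 for library C against sh-NC 1 and 3.

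By counts, CD44 was mostly assigned to transcripts longer than the standard form. The standard transcript NM_001001391 took 1.12%, 2.41% and 1.32% of CD44 counts in sh-NC, against 1.76%, 1.27% and 1.29% in shRBM10. Its share overlapped between the groups and was low in all 6 libraries. Transcripts 300 or more bases longer than it took 87.6% to 90.8% of counts in sh-NC and 90.6% to 93.4% in shRBM10. Divided by transcript length, these longer transcripts took 74.3% to 78.3% and 76.7% to 86.0%, and models over 100 bases shorter than the standard form took 18.5% to 20.4% and 10.1% to 20.6%, chiefly XM_011520489, with means of 15.1% and 11.6%. The 26 CD44 transcripts comprised 8 curated (NM) and 18 predicted (XM) RefSeq models, and all 26 had counts in some library. Of these, 16 reached 1% of CD44 counts in at least 1 library and are described here, and the other 10 together held 1.196% to 2.88%. Per library, 8449 to 15641 counts were assigned to CD44 transcripts, and the widest exact 95% binomial interval of a CD44 share spanned 1.90 percentage points. These intervals cover counting error only, not the error of dividing reads among transcripts that share most of their sequence.

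The most abundant CD44 transcript was NM_001001390, the v8 to v10 form that is common in epithelial cells. It took 25.3%, 26.9% and 25.1% of CD44 counts in sh-NC, against 21.5%, 22.7% and 22.1% in shRBM10. All 3 knockdown libraries lay below all 3 controls, with means of 25.8% ± 0.963 and 22.1% ± 0.580 (SD, n = 3 each), a difference of -3.65 percentage points. For library C against sh-NC 1 and 3 the difference was -3.09 points.

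The longer curated form, NM_001001389 with v3 to v10, had the opposite direction. It took 10.4%, 8.995% and 10.4% in sh-NC, against 13.4%, 12.1% and 11.2% in shRBM10. The groups did not overlap, and the difference of means was 2.31 points. For library C against sh-NC 1 and 3 it was 0.79 points.

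The exon content of the predicted models is not given in the sources used here, so they are described by effective length, which was recovered from the ratio of counts to FPKM. XM_005253235 was 1022 bases longer than the standard transcript, within 10 bases of the 1014 bases of v3 to v10. It took 17.5%, 13.6% and 18.2% in sh-NC and 21.3%, 18.4% and 18.7% in shRBM10, a difference of 3.05 points without overlap. Libraries B and C lay just above the highest control, and for library C against sh-NC 1 and 3 the difference was 0.85 points. XM_005253238 was 662 bases longer than the standard transcript, near the 657 bases of v6 to v10, although 21 of the 512 possible sets of variable exons come within 10 bases of it. Its shares were 22.0%, 22.3% and 22.4% in sh-NC and 20.6%, 19.9% and 20.2% in shRBM10, lower in every knockdown library, with a difference of -2.01 points. Divided by transcript length before shares were taken, the groups of XM_005253238 overlapped, with a difference of -0.81 points.

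The 4 transcripts with the longest effective lengths lay 1127 to 1148 bases over the standard transcript, where v2 to v10 add up to 1143 bases. XM_005253231 had 0 estimated counts in all 3 sh-NC libraries, which by counting error alone allows a share of up to 0.0192%, 0.0355% and 0.0192%. Its share was 2.90%, 2.42% and 0.943% in shRBM10 A, B and C. XM_006718388 took 0.940%, 1.24% and 0% in sh-NC and 2.43%, 1.72% and 2.88% in shRBM10. XM_005253232 took 3.31%, 2.47% and 5.03% in sh-NC and 3.32%, 4.93% and 1.99% in shRBM10, with overlap. The last, NM_000610, stayed under 1% in each library. Because these models differ by few bases in length, the division of reads between them is uncertain, and their sum is the firmer value. Summed, they took 5.02%, 3.72% and 5.03% in sh-NC and 8.66%, 9.18% and 5.82% in shRBM10, so that library C lay nearest to the controls.

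Of the 16 described CD44 transcripts, 4 were higher and 3 lower in shRBM10 without overlap. Of 33450 transcripts of at least 1% in a library, 14% were without overlap in either direction. These had passed a count filter, in genes with at least 2 such transcripts. Divided by length, 4 were higher and 2 lower. The third lower transcript was XM_011520488, 195 bases longer than the standard form, near the 204 bases of v10 alone. It took 2.00%, 3.16% and 2.17% in sh-NC, against 1.72%, 1.32% and 1.40% in shRBM10. The 2 described models far shorter than the standard transcript, XM_011520489 and XM_011520487, overlapped between the groups. XM_011520489 took 4.32%, 4.88% and 5.27% in sh-NC and 2.09%, 3.48% and 5.11% in shRBM10, low in A and B and within the control range in C. XM_005253240, XM_011520485, XM_011520483, XM_011520482 and XM_011520484 overlapped as well, with shares of 0% to 3.94%.

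**Figure D1:**
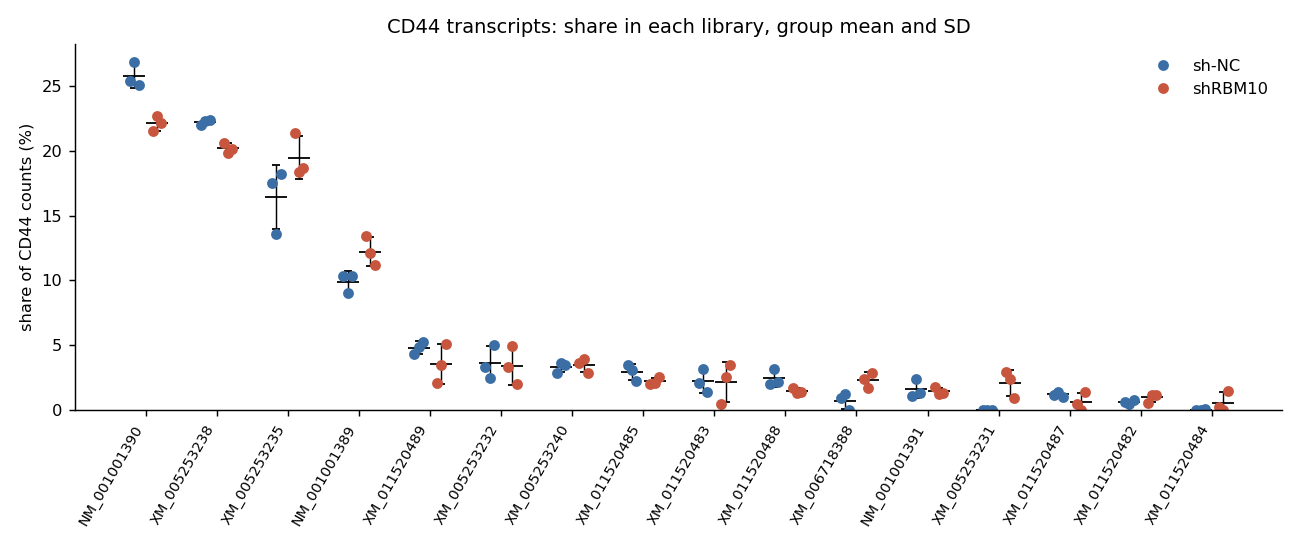
Share of CD44 counts (y axis, %, from 0) of the 16 transcripts with at least 1% in a library (x axis), for sh-NC (blue) and shRBM10 (red). Points are libraries and bars group mean and SD. The 2 leading transcripts, NM_001001390 and XM_005253238, lie lower and the next 2, XM_005253235 and NM_001001389, higher in all 3 shRBM10 libraries.

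The transcripts were also grouped by length, so that the values did not rest on single models. The length limits were set after the values were seen. The 8 transcripts at least 1000 bases longer than the standard form, the length of a form with v3 to v10 or more, took 33.5%, 26.8% and 34.1% of CD44 counts in sh-NC, against 44.1%, 39.9% and 37.6% in shRBM10. Every knockdown library exceeded every control, with means of 31.5% ± 4.03 and 40.6% ± 3.31 (SD, n = 3 each), a difference of 9.09 points. Divided by transcript length, the difference was 8.98 points. Leaving out each library in turn gave 6.77 to 10.6 points, the lowest without sh-NC 2.

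The ratio of these long transcripts to NM_001001390 was 1.32, 0.998 and 1.36 in sh-NC, against 2.05, 1.76 and 1.70 in shRBM10. The long forms thus outnumbered the v8 to v10 form by counts in all libraries but sh-NC 2, and by more in each knockdown library. The 7 transcripts of 500 to 1000 bases over the standard form took 32.0%, 33.9% and 30.6% in sh-NC and 27.7%, 30.7% and 30.8% in shRBM10, with overlap. Averaged over molecules, transcripts were 570, 521 and 554 bases longer than the standard form in sh-NC and 664, 637 and 581 bases in shRBM10. This average counts shorter models as no longer than the standard form.

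**Figure D2:**
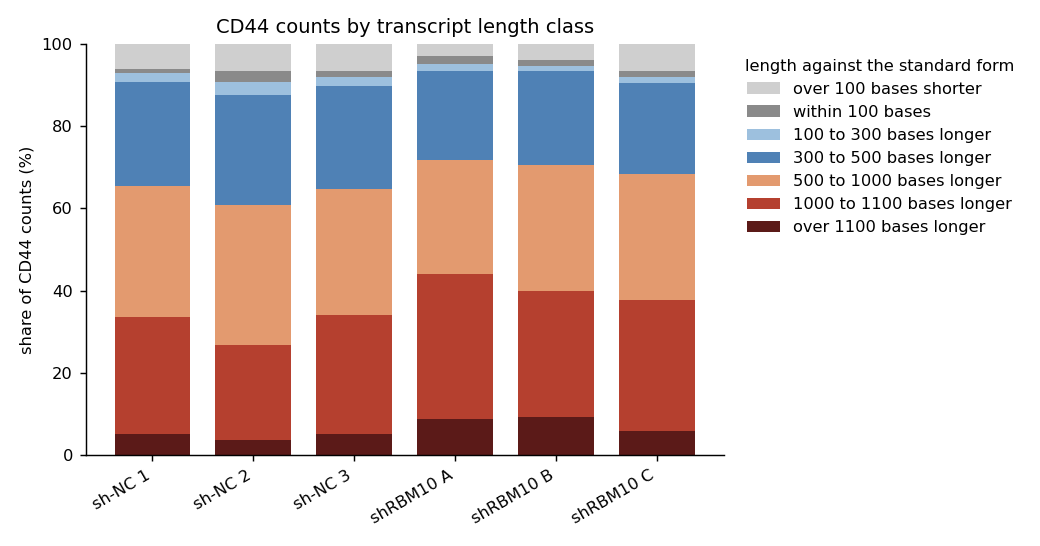
Share of CD44 counts (y axis, %, from 0 to 100) by transcript length against the standard form, stacked for each of the 6 libraries (x axis). The 2 dark red classes at the base, 1000 or more bases longer, reach 26.8% to 34.1% in sh-NC and 37.6% to 44.1% in shRBM10, and the blue class of 300 to 500 bases is NM_001001390 alone.

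The lowest and the highest share of long CD44 transcripts fell in the libraries at the ends of a trend over all genes. The 20% of genes with the shortest transcripts exceeded the 20% with the longest, in median log2 level relative to the mean of the 6 libraries, by 1.38 in sh-NC 2, the control with the lowest share of long CD44 transcripts. The difference was -0.15 in both sh-NC 1 and sh-NC 3. It was -0.87 in shRBM10 A, the library with the highest share, -0.38 in B and -0.02 in C. The exons v3 to v7, which separate the forms, had a GC content of 48.7% against 43.9% in v8 to v10. The part of length or GC content in the CD44 shares was not tested. In library C, which had trends near those of sh-NC 1 and 3, the long transcripts exceeded the mean of those controls by 3.83 points (n = 1 against 2).

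**Figure D3:**
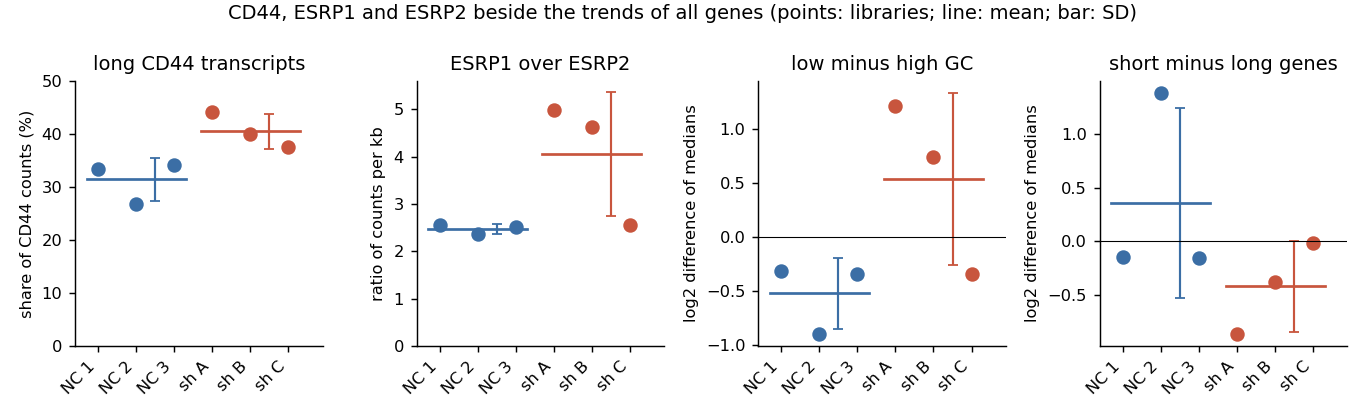
Share of long CD44 transcripts (%), ratio of ESRP1 to ESRP2 per-length levels, and the log2 difference of medians between the lowest and highest 20% of genes by GC content and by length (y axes) in each library (x axis; NC is sh-NC, sh is shRBM10). Points are libraries, lines means and bars SD. ESRP1 over ESRP2 and the GC trend are high in libraries A and B and at the control level in C, while the CD44 share is above all controls in all 3.

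ESRP1 had 7 transcripts, all of which reached 1% of its counts. The leading transcript NM_017697 took 33.2%, 34.4% and 28.9% in sh-NC, against 34.0%, 28.1% and 26.4% in shRBM10. The second, NM_001034915, has 12 fewer coding bases and took 26.2%, 23.2% and 24.8% in sh-NC and 23.4%, 28.6% and 28.1% in shRBM10. Both overlapped between the groups. Only XM_005250992 of the 7 did not overlap, with 15.6%, 12.03% and 15.3% in sh-NC and 18.4%, 18.91% and 15.8% in shRBM10. Over the 33450 filtered transcripts of at least 1% in a library, 14% were without overlap in either direction. Library C lay just above the highest control, and its difference from sh-NC 1 and 3 was 0.42 points. NM_001122825, NM_001122827 and NM_001122826, which lack 219, 231 and 66 coding bases of NM_017697, overlapped between the groups, as did XM_005250991. The widest exact 95% interval of an ESRP1 share spanned 4.76 points.

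ESRP2 had 5 transcripts and was dominated by the curated NM_024939. It took 78.9%, 83.0% and 68.3% in sh-NC and 64.2%, 63.8% and 71.2% in shRBM10, with overlap through sh-NC 3 and shRBM10 C. The predicted model XM_005256153, with an effective length of 6291 bases against 3164, took 18.5%, 12.4% and 18.1% in sh-NC and 23.3%, 27.8% and 25.3% in shRBM10. It was higher in every knockdown library, by 9.12 points on average, by 5.97 points when divided by length, and by 6.96 points for library C against sh-NC 1 and 3. The other 3 ESRP2 transcripts overlapped, where 14% of the filtered transcripts of at least 1% in a library were without overlap in either direction. NM_001365265, among these 3, did not pass that filter. ESRP2 had few counts, 661 to 1278 per library, and the widest interval of a share spanned 6.16 points.

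**Figure D4:**
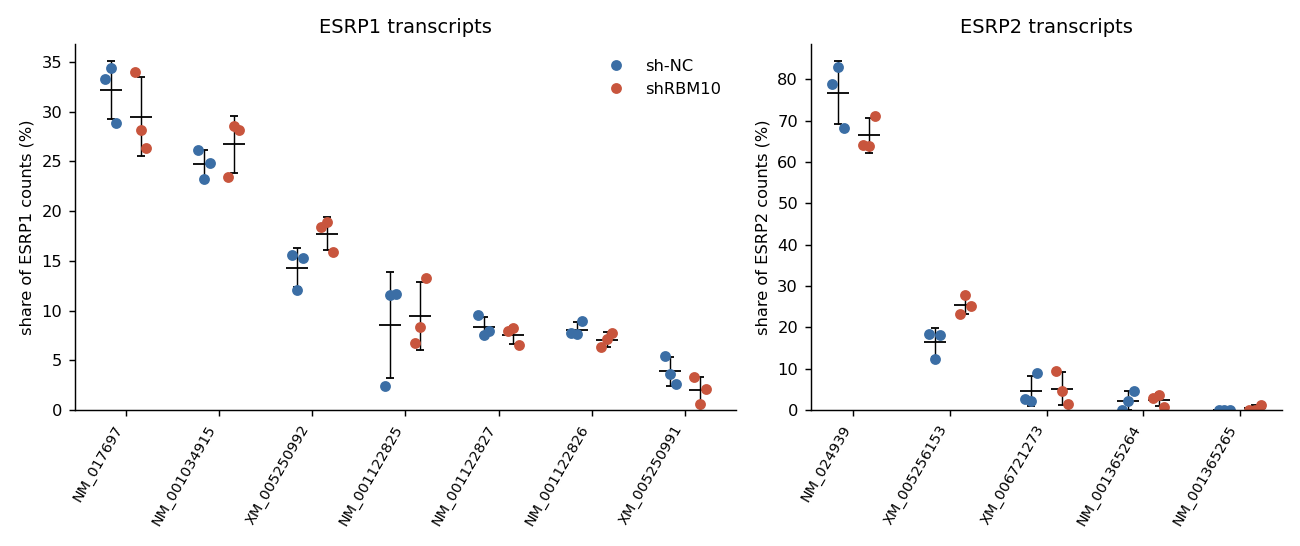
Share of ESRP1 and of ESRP2 counts (y axes, %, from 0) of each transcript (x axes) for sh-NC (blue) and shRBM10 (red). Points are libraries and bars group mean and SD. XM_005250992 of ESRP1 and XM_005256153 of ESRP2 lie higher in all 3 shRBM10 libraries, and the others overlap.

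Genes that act with CD44 and the ESRPs were taken from 8 lists and tested in the fit over all genes. Of their 87 tested genes, 0 passed the adjusted test by edgeR and 0 by limma-voom, where 0.0158% of all genes passed by either tool. By DESeq2 6 passed, against 4.54% of all genes. An unadjusted edgeR p under 0.05 was found for 21, against 24.3% of all genes. Below, a gene is said to pass where its unadjusted edgeR p was under 0.05 with an absolute log2 fold change over 1, which held for 10.1% of all genes in the higher and 1.53% in the lower direction. In the lists, 11 passed as higher and 1 as lower. Without shRBM10 A 4 of the 12 still passed and without sh-NC 2 also 4, and with the GC trend removed 2 did, HAS3 and LGALS9, while SNAI2 and SRSF3 passed in addition.

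Among 21 other regulators of CD44 splicing, 0 passed in either direction, with a median log2 fold change of -0.01 against 0.03 over all genes. U2AF2, a subunit of the factor that binds the polypyrimidine tract before exons, had the most marked values of those named. Its normalized counts were 14615, 16967 and 15578 in sh-NC and 6436, 7539 and 9810 in shRBM10, without overlap, at a log2 fold change of -0.99 (SE 0.26, edgeR adjusted p = 0.146). U2AF2 passed the adjusted test by DESeq2 and the unadjusted limit by limma-voom. YBX1, an RNA-binding protein that promotes CD44 exon inclusion, had 23860, 42990 and 24907 in sh-NC and 17990, 19742 and 18241 in shRBM10, a log2 fold change of -0.71 (SE 0.31). HNRNPA1 and HNRNPF, of the heterogeneous nuclear ribonucleoproteins, overlapped between the groups, with folds of 1.40 and 0.948. The log2 fold change of HNRNPA1 went from 0.48 to -0.11 with the GC trend removed. In that setting U2AF2 was at -0.71, YBX1 at -0.58 and HNRNPF at -0.23. The median of the 21 was then -0.22, against -0.05 over all genes, and 5 were above 0, where 9 were in the reported fit.

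Of 16 tested genes whose exons the ESRPs are known to regulate, 5 passed as higher and 0 as lower, with a median log2 fold change of 0.44. These 5 were SLK and MAP3K7, which encode protein kinases, MAGI1, a junction scaffold, RALGPS2, an exchange factor for Ral, and FNIP1, a folliculin partner. MAP3K7 had normalized counts of 218, 116 and 215 in sh-NC and 650, 460 and 227 in shRBM10, a fold of 2.43. FNIP1 had 133, 45.2 and 104 in sh-NC and 501, 263 and 108 in shRBM10, a fold of 3.06. As with ESRP1, libraries A and B were high and library C lay near sh-NC 1 and 3. With the GC trend removed 0 of the 16 passed, at a median of 0.18. The log2 fold change of MAP3K7 went from 1.28 to 0.51, that of FNIP1 from 1.62 to 0.81, that of SLK from 1.08 to 0.40, with RALGPS2 at 0.42. That of MAGI1 changed less, from 1.22 to 1.05. CTNND1, the adhesion protein p120-catenin, had a fold of 1.34, and SCRIB and RAC1 had folds of 0.624 and 0.957.

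The ESRPs act on the splicing of these targets, so their transcript usage was tested as well. It was tested for 15 of them by edgeR's diffSpliceDGE, and 0 passed the adjusted test, 0 had an unadjusted p under 0.05 and the lowest unadjusted p was 0.579. limma's diffSplice gave 0 by either limit. Over all 8348 genes tested, 0.0958% passed the adjusted test and 2.74% the unadjusted limit. The CD44 splicing regulators gave 0 of 17 adjusted by both tools and 2 with an unadjusted p under 0.05 by edgeR, SRSF1 and RBFOX2. limma's diffSplice also gave 2 at that limit, SRSF1 and HNRNPF.

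Of 10 tested ligands of CD44 and genes of hyaluronan metabolism, 3 passed as higher and 1 as lower. SPP1, which encodes the CD44 ligand osteopontin, had normalized counts of 1238, 1686 and 1294 in sh-NC and 3965, 3952 and 3143 in shRBM10. All knockdown libraries, C included, lay above all controls, with a log2 fold change of 1.39 (SE 0.23, edgeR adjusted p = 0.0894). With the GC trend removed it was 0.77. LGALS9, the lectin galectin-9, had 73.5, 68.5 and 65.9 in sh-NC and 127, 143 and 152 in shRBM10, a fold of 2.03, with a log2 fold change of 1.17 when the GC trend was removed. HAS3, a hyaluronan synthase, had 58.0, 39.7 and 55.0 in sh-NC and 25.7, 17.2 and 18.2 in shRBM10, a fold of 0.399. The hyaluronidase CEMIP2 had 324, 82.2 and 315 in sh-NC and 793, 688 and 329 in shRBM10, with library C close to sh-NC 1 and 3. SRGN, the proteoglycan core serglycin, and HYAL2, a hyaluronidase, had folds of 0.971 and 0.816, HMMR, a hyaluronan receptor, 1.60 and CEMIP 0.790, all with overlap. With the GC trend removed, the log2 fold change of HMMR went from 0.68 to -0.05, that of SRGN from -0.04 to -0.81 and that of HYAL2 from -0.29 to 0.02.

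Of 7 linkers between CD44 and the cytoskeleton, 2 passed as higher. RDX (radixin) had 782, 370 and 717 in sh-NC and 2252, 1904 and 783 in shRBM10, and the scaffold IQGAP1 had 2600, 472 and 2323 against 7494, 6177 and 2346. Both were high in libraries A and B, and with the GC trend removed their log2 fold changes went from 1.40 to 0.64 and from 1.57 to 1.03. EZR (ezrin) had a fold of 0.817, MSN (moesin) 1.06, NF2 (merlin) 0.822 and ANK3 (ankyrin-G) 1.89. Of 8 proteases and gamma-secretase subunits that cleave CD44, 1 passed as higher, the sheddase ADAM10, with 552, 149 and 526 in sh-NC, against 1346, 1338 and 566 in shRBM10. Its log2 fold change went from 1.40 to 0.70 with the GC trend removed. The gamma-secretase subunits APH1A, NCSTN and PSENEN had folds of 0.794, 1.06 and 0.814.

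Among 7 co-receptors and partners of CD44, 0 passed, and EGFR, ERBB2, VAV2 and SLC7A11, the cystine transporter that CD44 variants bind, had folds of 1.36, 0.906, 0.949 and 1.74 with overlap. With the GC trend removed, the log2 fold change of SLC7A11 went from 0.80 to 0.09, that of ERBB2 from -0.14 to 0.06 and that of VAV2 from -0.08 to 0.14. EGFR ranged from 2588 in sh-NC 2 to 14910 in shRBM10 A. Of 13 epithelial genes 0 passed, with a median log2 fold change of -0.08, and the keratins KRT8, KRT18 and KRT19 overlapped between the groups. CLDN7, a tight junction protein, had a fold of 0.675 without overlap. Levels did not overlap for 2 of the 13 and for 30.1% of all genes tested. Of 5 tested mesenchymal genes and transcription factors that repress epithelial genes 0 passed, with folds of 1.45 for FN1 (fibronectin), 1.26 for CDH2 (N-cadherin), 0.708 for SNAI2 and 1.05 for SNAI1. CDH2, as higher, and SNAI2, as lower, were without overlap too. With the GC trend removed, the log2 fold change of CDH2 went from 0.33 to -0.05, and that of KRT19 from -0.15 to 0.15. That of FN1 went from 0.54 to 0.15, that of SNAI1 from 0.07 to 0.33 and that of CLDN7 from -0.57 to -0.30. SNAI2 went from -0.50 to -1.08 and passed as lower in that setting.

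Markers of other cell types were near 0 except CD68, the macrophage marker that many cultured lines also express. Leukocyte markers summed to 111 to 135 CPM in sh-NC and 104 to 133 in shRBM10, of which CD68 averaged 121 and 114 and the pan-leukocyte gene PTPRC 0.159 and 0.247. Fibroblast markers summed to 2.25 to 7.35 and 6.38 to 11.4, and endothelial markers to 4.01 to 11.02 and 2.89 to 3.92. Of the lung epithelium markers, EPCAM averaged 312 and 324 CPM and KRT7 6594 and 6179, whereas the alveolar genes NKX2-1, NAPSA and SFTPB averaged under 1.

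The genes whose log2 normalized counts followed each member most closely over the 6 libraries were taken from 11065 genes with a mean count of at least 50. For ESRP1 these were ABCD3, UBQLN1 and CROT, each at r = 0.999. ABCD3, a peroxisomal transporter, had 234, 134 and 228 in sh-NC, against 590, 501 and 248 in shRBM10, in the same order of libraries as ESRP1. For CD44 they were EREG (epiregulin, an EGFR ligand) at r = 0.995, PTGS2 (cyclooxygenase) at 0.979 and DHX33 (an RNA helicase) at 0.978. EREG had 224, 76.7 and 247 in sh-NC and 169, 104 and 84.5 in shRBM10. For ESRP2 they were TNKS1BP1 at 0.993, HIP1R at 0.991 and CASZ1 at 0.990. Differences in depth, GC trend and length trend between the 6 libraries touch many genes at once, and the correlations are a description.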

How the data were processed

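RNA-seq of 3 sh-NC and 3 shRBM10 PC9 libraries was analysed. The authors used build hg38, per the labels, and deposited estimated counts per gene and per RefSeq transcript, which are not normalized (87.5% and 41.1% of values whole). The authors also deposited FPKM values, which scale the counts by transcript length and library depth. The aligner, counting tool and annotation are not given in the sources used here, and neither is which of the 2 library kits in the protocol text (1 of them directional) was used. Of the per-library columns, 18 in the gene table and 14 in the transcript table matched no label of these groups or were not needed, and 8 columns of group means in each table were not used.

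Counts were rounded. Genes were filtered with filterByExpr, scaled by TMM and tested with edgeR 4.0.16 (quasi-likelihood) in R 4.3.3, without covariates, with Benjamini-Hochberg adjustment. Transcript usage was tested with diffSpliceDGE (Simes p per gene). limma 3.58.1, DESeq2 1.42.0, other scalings and filters, each library left out and a GC trend removed (GC content found for 97.8% of genes tested) were alternatives. Both tests were tested on simulated data with known changes. These data had the same spread setting for all features and no GC or length trend between libraries, so they do not bear on such trends. The share of a transcript is its percent of its gene's counts. Effective lengths came from counts over FPKM in the 4 libraries with a labelled FPKM column, at FPKM of at least 0.5. ESRP2 transcript NM_001365265 had none and was left out of per-length values. Shares have exact Clopper-Pearson 95% intervals, and a count of 0 allows up to 3 counts.

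Named were the members and RBM10, the list genes past the unadjusted limit with up to 4 further genes of highest mean count per list, list genes called for transcript usage, and the 3 genes most alike each member. Of the further genes, 2 are not reported here. Genes from CD44 splicing regulators with an unadjusted usage p under 0.05 were named after their values were seen. The members and lists were chosen with earlier results of these data known. The comparison of library C with sh-NC 1 and 3, and the length classes, were chosen after the data were seen.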

Additional observations from a re-analysis of the deposited data

How the results depend on the processing

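With the GC trend removed, the log2 fold changes of CD44, ESRP1 and ESRP2 were -0.463, 0.0332 and 0.266. Leaving out each library in turn gave -0.277 to -0.0568 for CD44 (-0.277 without sh-NC 2, -0.165 without shRBM10 A), 0.40 to 0.71 for ESRP1 and -0.17 to 0.08 for ESRP2. Library C against sh-NC 1 and 3 alone gave -0.285 for CD44, 0.0660 for ESRP1 and 0.10 for ESRP2, and 3.83 points for the long CD44 transcripts, whose difference was 6.77 to 10.6 points with each library left out. The log2 fold change of RBM10 was -1.26 by DESeq2 (adjusted p = 0.00154), -0.98 with the GC trend removed and -1.43 to -1.17 with each library left out. Its edgeR adjusted p with each library left out was 0.0487 to 0.454, lowest without sh-NC 2 and highest without shRBM10 A. Genes called by the adjusted test numbered 2 in the reported fit, 573 by DESeq2, 0 with library size only, 31 without a filter, 5 with the GC trend removed and 0 to 23 with each library left out, 23 without sh-NC 2 and 0 without shRBM10 A, B or C or sh-NC 3. Genes past the unadjusted limit numbered 600 with the GC trend removed and 574 to 2143 with each library left out, 574 without shRBM10 A and 813 without sh-NC 2. Of the genes past that limit, 86.8% were higher in the reported fit and 45.2% with the GC trend removed. List genes past the limit numbered 6 with library size only, 4 with the GC trend removed and 4 to 17 with each library left out (7 without shRBM10 B). Genes with shifted transcript usage numbered 8 in the reported fit, 0 by limma's diffSplice, 0 with at least 10 counts in every library and 5 to 12 with each library left out (5 without shRBM10 B). The causes were not tested. Scaling by library size alone moved the median log2 fold change of all genes from 0.03 to 0.16. Of 280 alternative values of single transcript shares, 260 moved by less than the spread between libraries (pooled SD). For values with a library left out this outcome was fixed in advance, because with n = 3 the difference cannot move by that much. The count is therefore no measure of stability. No paired analysis was possible because the knockdown columns B and C match no sample label and so carry no replicate number, which leaves 1 number shared between the groups. The letters in the column names are not replicate labels.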
